A study of Mus musculus with 15 samples.

Results

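The insulin-like growth factor (IGF) axis was followed through 10 genes chosen by name in a table of 45706 mouse genes: the ligand Igf1, the receptors Igf1r and Igf2r, the binding proteins Igfbp2, Igfbp3, Igfbp4, Igfbp5, Igfbp6 and Igfbp7, and the pappalysin Pappa. Each name matched 1 row, and 9 of the 10 rows were among the 17650 genes abundant enough to be tested. The exception was Igfbp2, which lay under the filter on low counts. RNA came from lymphatic endothelial cells of female C57Bl/6 mice, sorted as Pdpn+ CD31+ CD45- cells from pooled lymph nodes of 5 sites and kept in culture. The 3 groups of 5 libraries were cells left unstimulated and cells that received murine VEGF-C, a purified recombinant protein, at 10 or 100 ng/mL over 72 h. All groups grew in the same medium, which contained fetal bovine serum, and RNA was sequenced from stranded, poly-A selected libraries. Libraries carry the letters A to E within each group, and no source used here says whether they came from separate cultures or animals, so the spread between them may be technical.

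IGF1 and IGF2 are peptide hormones that signal through the IGF1 receptor, a tyrosine kinase that activates the PI3K-AKT pathway through insulin receptor substrates. Secreted IGF binding proteins hold most IGF in extracellular fluid and keep it from the receptor, while proteases that cut them set it free. Pappalysin is a secreted metalloprotease best known for cutting IGFBP4, and the stanniocalcins are secreted proteins that block it. VEGF-C is the main growth factor of lymphatic vessels and signals through VEGFR-3, the product of Flt4.

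Abundances are given as CPM (counts per 1e6 counts, here with TMM scaling of the library sizes), as mean ± SD over 5 libraries. A gene is said to have risen or fallen where edgeR's quasi-likelihood test gave a Benjamini-Hochberg adjusted p under 0.05 over all 17650 genes. At 100 against 0 ng/mL, 1 of the 9 tested members rose (Igfbp4) and 3 fell (Igfbp6, Igfbp7 and Pappa), against backgrounds of 42.9% of all genes tested that changed, 21.4% that rose and 21.5% that fell. The groups did not overlap for 3 members, against 27.2% of all genes tested. The median log2 fold change was -0.08 over the 9 members and 0.01 over all genes tested. No member passed the test at 10 against 0 ng/mL, where 0% of all genes did. Before adjustment 2 of the 9 tested members had an edgeR p under 0.05 there, Igfbp4 (0.00802) and Igf1r (0.0268). Of all 17650 genes tested, 844 did in the same fit. That fit takes the libraries as unpaired; after group means were taken out, each unstimulated library correlated best with a 10 ng/mL library of another letter (r from 0.487 to 0.786), no label pairs them, and no fit with such pairs was made. At 100 against 10 ng/mL, 3 members rose (Igfbp3, Igfbp4 and Igfbp5) and 4 fell (Igf1r, Igfbp6, Igfbp7 and Pappa), against backgrounds of 40.5% of all genes tested that changed, 19.9% that rose and 20.6% that fell. There the groups did not overlap for 3 members, against 25.6% of all genes tested. A share near the background is no result about the set, so the genes are described singly. The comparisons share libraries and are not independent of each other.

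**Figure D1:**
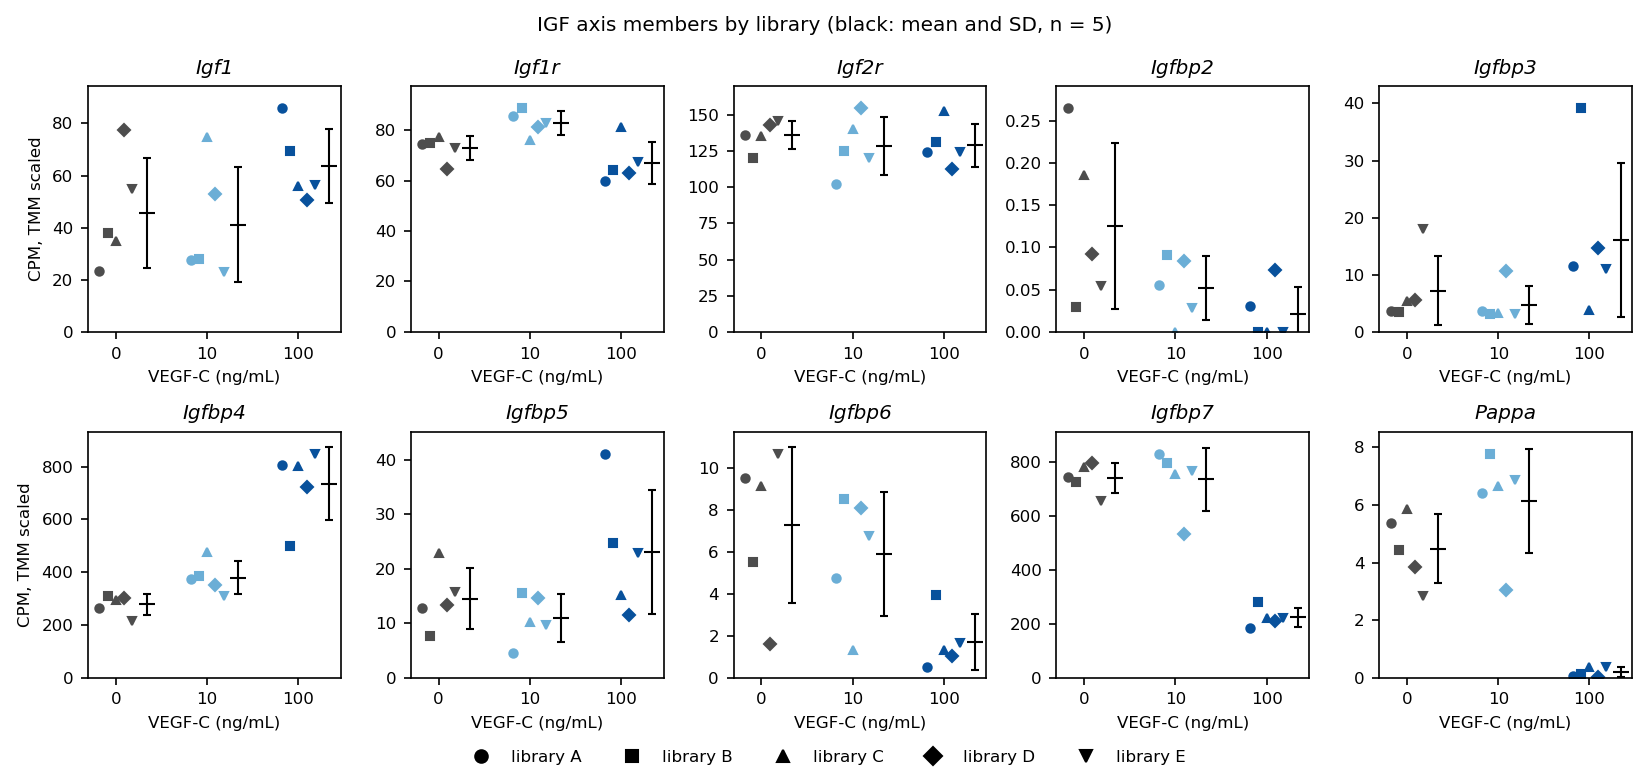
CPM of the 10 members on linear axes that start at 0, by VEGF-C dose; each symbol is 1 library with its letter, and the black mark and bar are the mean and SD of 5 libraries. The 5 libraries at 100 ng/mL lie above all others for Igfbp4 (499.6 to 846.4 CPM) and below all others for Igfbp7 (184.7 to 282.5 CPM) and Pappa (0.0365 to 0.393 CPM).

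The libraries held 27784906 to 38590841 estimated counts. Library E of the unstimulated cells, library D at 10 ng/mL and library B at 100 ng/mL stood apart from their groups on the second principal component, at -41.1, -28.2 and -45.1, which held 12.6% of the variance. Results that leaving them out changes are given both ways. On the first principal component, which held 64.8% of the variance, 100 ng/mL B lay at 38.8. The rest of its group lay at 69.8 to 78.5, and the unstimulated and 10 ng/mL libraries at -41.8 to -22.7. The markers used for sorting were checked: Pecam1, which encodes CD31, stood at 1588 CPM and Pdpn at 102 CPM in unstimulated cells, and Ptprc, which encodes CD45, at 4.47 CPM. Flt4 stood at 614.9 CPM and the lymphatic transcription factor Prox1 at 242.5 CPM, while the lymphatic markers Ccl21a and Mmrn1 were at 0 or near it in every group.

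Shown first are the 3 binding protein genes that passed the test at 100 against 0 ng/mL. The 100 bases that precede each RefSeq start (GRCm38.p6) are printed 5′ to 3′ on the gene's strand. Igfbp4 lies at chr11:99041144-99041243 (+ strand), Igfbp7 at chr5:77408046-77408145 (- strand) and Igfbp6 at chr15:102144086-102144185 (+ strand). Capitals mark a TATA box core with the letters TATAAA. They also mark a GC box core with the letters GGGCGG. A FOXO site core with the letters GTAAACA was searched as well, each on both strands.
Igfbp4: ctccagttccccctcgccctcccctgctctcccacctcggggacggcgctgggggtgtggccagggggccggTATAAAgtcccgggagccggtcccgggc
Igfbp7: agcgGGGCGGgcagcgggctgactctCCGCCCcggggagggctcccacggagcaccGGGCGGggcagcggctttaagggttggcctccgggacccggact
Igfbp6: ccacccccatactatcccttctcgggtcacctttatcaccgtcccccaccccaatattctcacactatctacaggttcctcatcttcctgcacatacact
Igfbp4 held the TATA box core, starting 28 bases before the start, and no GC box core. Igfbp7 held the GC box core on its own strand, starting 96 and 44 bases before the start, and on the other strand with its leftmost base 74 bases before it, and no TATA box core. Igfbp6 held none of the 3 motifs. Igf1r and Igf2r, which did not pass the test at 100 against 0 ng/mL, also held the GC box core, as did a window of the untested Igfbp2. Over all 32851 RefSeq windows of this length, 5.56% held the TATA box core, 24.7% the GC box core and 1.12% the FOXO site core, on either strand. G and C made up 75.0% of the window of Igfbp4, 77.0% of that of Igfbp7 and 51.0% of that of Igfbp6, with a median of 55.0% over all windows. The RefSeq start of Igfbp6 lies upstream of its GENCODE M21 start. The RefSeq table matched 9 of the 10 members by symbol, and no promoter is shown for Pappa. These matches describe the letters only.

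Igfbp4, a binding protein that pappalysin cuts, rose with 100 ng/mL VEGF-C. The gene (ENSMUSG00000017493) is protein coding and lies at chr11:99041244-99054392 on the + strand (GENCODE M21, GRCm38, as for all gene positions here). Unstimulated libraries A to E held 265.6, 311.7, 295.2, 302.2 and 216.5 CPM. With 10 ng/mL the values were 374.8, 386.9, 475.3, 350.7 and 309.2 CPM, and with 100 ng/mL 806.2, 499.6, 802.7, 722.7 and 846.4 CPM. The 100 ng/mL libraries overlapped neither other group, while the lowest 10 ng/mL library lay within the unstimulated range. The rise from 278.2 ± 38.6 to 735.5 ± 139 CPM was a log2 fold change of 1.40 ± 0.15 (SE; edgeR adjusted p = 3.15e-06), or 2.64-fold. The mean at 10 ng/mL, 379.4 ± 61.3 CPM, differed from the unstimulated mean by 0.45 ± 0.15 (log2; edgeR adjusted p = 0.969). From 10 to 100 ng/mL the log2 fold change was 0.96 ± 0.15 (adjusted p = 0.000115). Without any single library the log2 fold change at 100 against 0 ng/mL lay between 1.32 and 1.51.

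Igfbp7, a secreted protein of vascular basement membranes that binds IGFs more weakly than its relatives, fell at 100 ng/mL against both other groups, while 10 against 0 ng/mL missed the threshold (edgeR adjusted p = 0.998). It lies at chr5:77349240-77408041 on the - strand (ENSMUSG00000036256). In unstimulated libraries A to E it stood at 746.0, 726.8, 781.5, 794.8 and 655.6 CPM. The 10 ng/mL libraries held 828.6, 796.6, 755.9, 532.8 and 765.5 CPM, with D the lowest, and the 100 ng/mL libraries 184.7, 282.5, 221.9, 211.3 and 220.9 CPM. Every 100 ng/mL library lay below every other library. The mean fell from 740.9 ± 54.9 to 224.3 ± 35.9 CPM, a log2 fold change of -1.72 ± 0.12 (edgeR adjusted p = 9.28e-08), and the unstimulated level was 3.30 times the stimulated one. At 10 ng/mL the log2 fold change was -0.01 ± 0.12, with an approximate 95% interval from -0.25 to 0.23. The last 85 bases of the gene overlap the end of Polr2b on the other strand, and no source used here says whether the counting used strand. Polr2b, an RNA polymerase subunit gene, lay between 14.7 and 17.6 RPKM in all 15 libraries (reads per kilobase of gene and per 1e6 reads), against 85.2 to 387.4 RPKM for Igfbp7.

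Pappa, the pappalysin gene, had the largest log2 fold change of the 9 tested members at 100 ng/mL. It lies at chr4:65124174-65357509 on the + strand (ENSMUSG00000028370). Its level in unstimulated libraries A to E was 5.39, 4.45, 5.86, 3.87 and 2.85 CPM. The 10 ng/mL libraries held 6.41, 7.76, 6.65, 3.05 and 6.88 CPM, and the 100 ng/mL libraries 0.0623, 0.134, 0.393, 0.0365 and 0.370 CPM. The 100 ng/mL values rest on 2.10, 4.36, 11.5, 1.41 and 13.1 estimated counts, against 104.6 to 255.5 in the other libraries, so their order among themselves is not resolved at this depth. Mean abundance fell from 4.48 ± 1.204 to 0.199 ± 0.171 CPM, a log2 fold change of -4.43 ± 0.42 (edgeR adjusted p = 1.13e-06). The approximate 95% interval of that change ran from -5.25 to -3.60. From 10 to 100 ng/mL the log2 fold change was -4.88 ± 0.42 (adjusted p = 4.9e-07). The difference between 10 and 0 ng/mL was 0.46 ± 0.30 (log2; adjusted p = 0.969), and those groups overlapped. On the log2(RPKM + 1) scale, which compresses values under 1, the difference at 100 against 0 ng/mL was -0.27 (limma adjusted p = 0.000119).

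Igfbp6, a binding protein with a preference for IGF2, fell at 100 ng/mL from a low level. It lies at chr15:102144362-102149511 on the + strand. The unstimulated libraries A to E held 9.52, 5.52, 9.18, 1.61 and 10.7 CPM, the 10 ng/mL libraries 4.76, 8.56, 1.35, 8.12 and 6.79 CPM, and the 100 ng/mL libraries 0.529, 3.94, 1.34, 1.06 and 1.68 CPM. Unstimulated D and 10 ng/mL C lay far below the rest of their groups and within the 100 ng/mL range. The log2 fold change at 100 against 0 ng/mL was -2.10 ± 0.58 (edgeR adjusted p = 0.00867), and at 100 against 10 ng/mL -1.79 ± 0.58 (adjusted p = 0.0228). The second of these lost the threshold without 10 ng/mL B, 100 ng/mL A or 100 ng/mL D, with adjusted p-values of 0.0535, 0.0546 and 0.0551, and in limma-voom (0.0617). On the log2(RPKM + 1) scale the difference at 100 against 0 ng/mL was -1.26 (limma adjusted p = 0.0128).

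Many markers of other cell types also fell at 100 against 0 ng/mL. Over all genes tested 21.5% fell and 21.4% rose in that comparison, which is the background for each marker list here. Of 18 fibroblastic and mural markers, 16 were tested and 14 fell at 100 against 0 ng/mL. None rose, and Ccl19 had a rounded count of 0 in every library. Their summed level ranged from 3200 to 4678 CPM in unstimulated cells, from 2672 to 4434 CPM at 10 ng/mL and from 935.2 to 1380 CPM at 100 ng/mL, where Thy1 alone held 737.9 ± 65.6 CPM. Of 14 leukocyte markers, 11 were tested and 9 fell, and their summed levels were 48.6 to 151.6 CPM without stimulation, 41.5 to 123.1 CPM at the lower dose and 22.6 to 39.5 CPM at 100 ng/mL. Of 9 epithelial markers, 7 were tested, 5 fell and 1 rose, with summed levels of 84.0 to 135.9, 67.6 to 90.7 and 31.0 to 61.0 CPM in the same order. In contrast, 8 of the 10 tested genes on the lymphatic endothelial list rose (Flt4, Lyve1, Reln, Cdh5, Pecam1, Tie1, Tek and Nrp2). None of them fell. Cdh5, Pecam1, Tie1 and Tek on that list are general endothelial genes, not specific to lymphatic cells. Prox1 (edgeR adjusted p = 0.0589) and the sorting marker Pdpn (0.453) did not pass the test. Summed levels of the lymphatic list were 5583 to 6387, 6227 to 6719 and 8050 to 11883 CPM in the same order. Among 12 blood endothelial markers 2 rose and 6 fell. Their summed levels, above those of the fibroblastic and mural list in every group, were 4812 to 5910, 4839 to 5758 and 4380 to 4757 CPM. The part of other cells in the falls of Igfbp6, Igfbp7 and Pappa and in the rise of Igfbp4 was not tested, and fewer cells of a type and less RNA per cell cannot be told apart in these libraries.

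**Figure D2:**
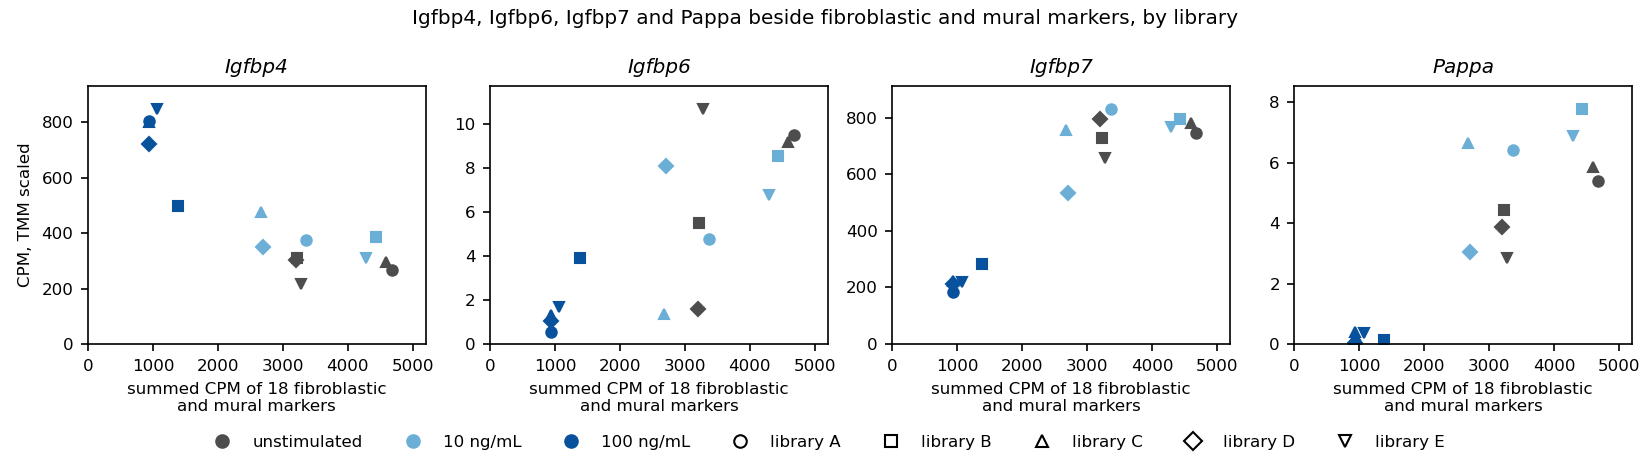
CPM of 4 members (vertical axes) against the summed CPM of 18 fibroblastic and mural markers (horizontal axes), 1 symbol per library, coloured by dose with letters as symbols. The 100 ng/mL libraries, with marker sums up to 1380 CPM, stand apart from the other 10 libraries, whose sums start at 2672 CPM. Unstimulated libraries A to E had sums of 4678, 3224, 4595, 3200 and 3280 CPM. In that order they held 746.0, 726.8, 781.5, 794.8 and 655.6 CPM of Igfbp7. Igfbp6 stood at 9.52, 5.52, 9.18, 1.61 and 10.7 CPM. Pappa stood at 5.39, 4.45, 5.86, 3.87 and 2.85 CPM, and Igfbp4 at 265.6, 311.7, 295.2, 302.2 and 216.5 CPM.

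Igfbp3, the main IGF carrier of blood plasma, did not pass the test at 100 against 0 ng/mL and rested on single libraries. It lies at chr11:7206086-7213923 on the - strand. Its level was 3.68, 3.58, 5.40, 5.63 and 17.96 CPM in unstimulated libraries A to E, 3.59, 3.20, 3.26, 10.6 and 3.08 CPM at 10 ng/mL, and 11.6, 39.1, 3.90, 14.7 and 10.96 CPM at 100 ng/mL. The highest library of each group was the one that stood apart on the second principal component. The log2 fold change at 100 against 0 ng/mL was 1.14 ± 0.59 (edgeR adjusted p = 0.133). It was 0.50 without 100 ng/mL B (adjusted p = 0.478), 1.81 without unstimulated E (adjusted p = 0.0184) and 1.17 without the 3 libraries that stood apart (adjusted p = 0.0078). At 100 against 10 ng/mL it was 1.75 ± 0.60 (adjusted p = 0.0303), which became 1.12 without 100 ng/mL B (adjusted p = 0.113). Without 10 ng/mL A, B, C or E the adjusted p was 0.066, 0.0682, 0.0677 or 0.0678.

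Igfbp5, a binding protein that also associates with extracellular matrix, and Igfbp2 lie next to each other on chromosome 1, with 5457 bases between them, at chr1:72857932-72874884 (- strand) and chr1:72824503-72852474 (+ strand). Unstimulated libraries A to E held 12.8, 7.76, 23.0, 13.4 and 15.7 CPM of Igfbp5, the 10 ng/mL libraries 4.60, 15.6, 10.18, 14.7 and 9.75 CPM, and the 100 ng/mL libraries 41.02, 24.8, 15.2, 11.6 and 22.9 CPM. All 3 groups overlapped. The log2 fold change was 0.67 ± 0.37 at 100 against 0 ng/mL (edgeR adjusted p = 0.159) and 1.075 ± 0.37 at 100 against 10 ng/mL (adjusted p = 0.0305). The latter lost the threshold without 10 ng/mL A, C or E or 100 ng/mL A, with adjusted p-values of 0.0655, 0.0617, 0.0636 and 0.106. Igfbp2 reached at most 0.264 CPM, in unstimulated A, had fewer than 10 estimated counts in every library and was not tested. Its mean was 0.125 ± 0.0978 CPM in unstimulated cells and 0.0208 ± 0.0321 CPM at 100 ng/mL, and the groups overlapped.

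**Figure D3:**
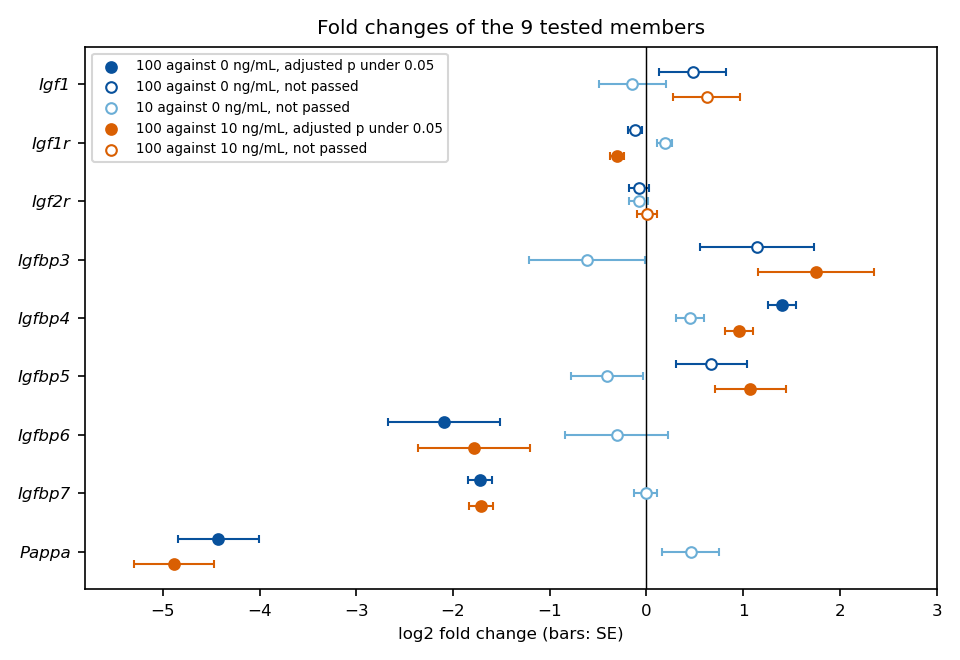
Log2 fold changes of the 9 tested members with SE bars in the 3 comparisons; filled symbols passed an adjusted p of 0.05. At 10 against 0 ng/mL all symbols are open, and at 100 against 0 ng/mL Pappa lies at -4.43, Igfbp6 at -2.10, Igfbp7 at -1.72 and Igfbp4 at 1.40.

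The ligand and the receptors differed less. Igf1 lies at chr10:87858265-87937042 on the + strand, and overlaps Igf1os on the other strand, which held 0.455 counts per library on average. Unstimulated libraries A to E held 23.3, 37.9, 34.8, 77.6 and 54.9 CPM of Igf1, the 10 ng/mL libraries 27.7, 28.04, 74.7, 52.8 and 22.8 CPM, and the 100 ng/mL libraries 85.8, 69.5, 56.0, 50.6 and 56.2 CPM. Unstimulated D and 10 ng/mL C, the libraries with the least Igfbp6 in their groups, had the most Igf1, as did 100 ng/mL A. The log2 fold change of Igf1 at 100 against 0 ng/mL was 0.48 ± 0.35 (edgeR adjusted p = 0.292). At 100 against 10 ng/mL it was 0.62 ± 0.35 (adjusted p = 0.168), and 0.95 without 10 ng/mL C (adjusted p = 0.0332). In a fit with 3 surrogate variables Igf1 passed in both comparisons, at 0.60 (edgeR adjusted p = 0.000159) and 0.82 (1.26e-05).

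Igf1r, the signalling receptor, lies at chr7:67952827-68233668 on the + strand. Its abundance was 74.6, 75.0, 77.2, 64.6 and 72.7 CPM in unstimulated libraries A to E, 85.7, 88.6, 76.0, 81.2 and 82.9 CPM at 10 ng/mL, and 59.7, 64.2, 81.0, 63.1 and 67.2 CPM at 100 ng/mL. The 100 ng/mL group lay below the 10 ng/mL group except for library C. It fell at 100 against 10 ng/mL by 0.31 ± 0.08 on the log2 scale (edgeR adjusted p = 0.00502). Against unstimulated cells the log2 fold change was -0.12 ± 0.08 (adjusted p = 0.231), or -0.20 without 100 ng/mL C (adjusted p = 0.016). With 3 surrogate variables in the fit it was -0.13 (adjusted p = 0.0129). At 10 against 0 ng/mL it was 0.19 ± 0.08 (adjusted p = 0.969).

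Igf2r, the mannose 6-phosphate receptor, which takes up IGF2 for degradation, lies at chr17:12682406-12769664 on the - strand. It ranged from 120.4 to 145.4 CPM in unstimulated cells, with a median of 136.3 CPM in library A, from 102.1 to 154.4 CPM at 10 ng/mL and from 112.4 to 152.4 CPM at 100 ng/mL. The groups overlapped throughout. Its log2 fold change at 100 against 0 ng/mL was -0.08 ± 0.10, with an approximate 95% interval from -0.28 to 0.12 (edgeR adjusted p = 0.581). The gene overlaps the antisense gene Airn, which held 69.7 counts per library on average against 4421 for Igf2r.

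Levels of different genes were compared per gene length, as RPKM. In unstimulated cells the order was Igfbp7 (353.6 ± 21.8 RPKM), Igfbp4 (33.9 ± 4.19), Igf1r (8.71 ± 0.642), Igf2r (7.73 ± 0.621), Igfbp6 (3.55 ± 1.84), Igf1 (2.48 ± 1.13), Igfbp5 (1.31 ± 0.495), Igfbp3 (1.26 ± 1.08), Pappa (0.219 ± 0.0585) and Igfbp2 (0.0378 ± 0.029). The ranges of Igf1r and Igf2r overlapped, as did those of each neighbouring pair from Igfbp6 down to Igfbp3, so the order within those runs is not resolved. The mean of Igfbp7 ranked 35 among all 45706 genes by RPKM, and that of Igfbp4 ranked 917. At 10 ng/mL the order of the means was the same, with Igfbp7 at rank 40 and Igfbp4 at rank 574. At 100 ng/mL Igfbp7 (104.3 ± 16.9 RPKM, rank 176) and Igfbp4 (87.3 ± 16.7 RPKM, rank 225) overlapped. Igfbp6 (0.809 ± 0.622 RPKM) then had a lower mean than Igf1 (3.37 ± 0.739), Igfbp3 (2.69 ± 2.26) and Igfbp5 (2.02 ± 0.986), with Pappa (0.00964 ± 0.00771) and Igfbp2 (0.00618 ± 0.00817) lowest and overlapping.

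Summed over Igfbp2 to Igfbp7, binding protein RNA per length stood at 393.6 ± 23.2 RPKM in unstimulated cells, 392.9 ± 54.5 RPKM at 10 ng/mL and 197.1 ± 10.31 RPKM at 100 ng/mL. Library sums ran from 357.4 to 413.2, from 299.5 to 435.4 and from 186.0 to 210.6 RPKM, so the 100 ng/mL libraries overlapped neither other group. Igfbp7 made up 89.8 ± 0.513% of the sum in unstimulated cells, 87.1 ± 2.46% at 10 ng/mL and 52.8 ± 7.38% at 100 ng/mL. Igfbp4 made up 8.59 ± 0.813%, 11.6 ± 2.15% and 44.4 ± 8.57%. The ratio of Igfbp7 to Igfbp4 per length was 9.14 to 11.9 in unstimulated libraries, 5.95 to 9.70 at 10 ng/mL and 0.898 to 2.22 at 100 ng/mL, where B was the highest. Without Igfbp7 the direction of the sum turned: the other 5 genes together held 40.0 ± 2.38 RPKM in unstimulated cells, 49.7 ± 6.31 RPKM at 10 ng/mL and 92.8 ± 14.2 RPKM at 100 ng/mL. The sums are given as descriptions, with no p-value quoted, since their genes were chosen with results of these data known.

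**Figure D4:**
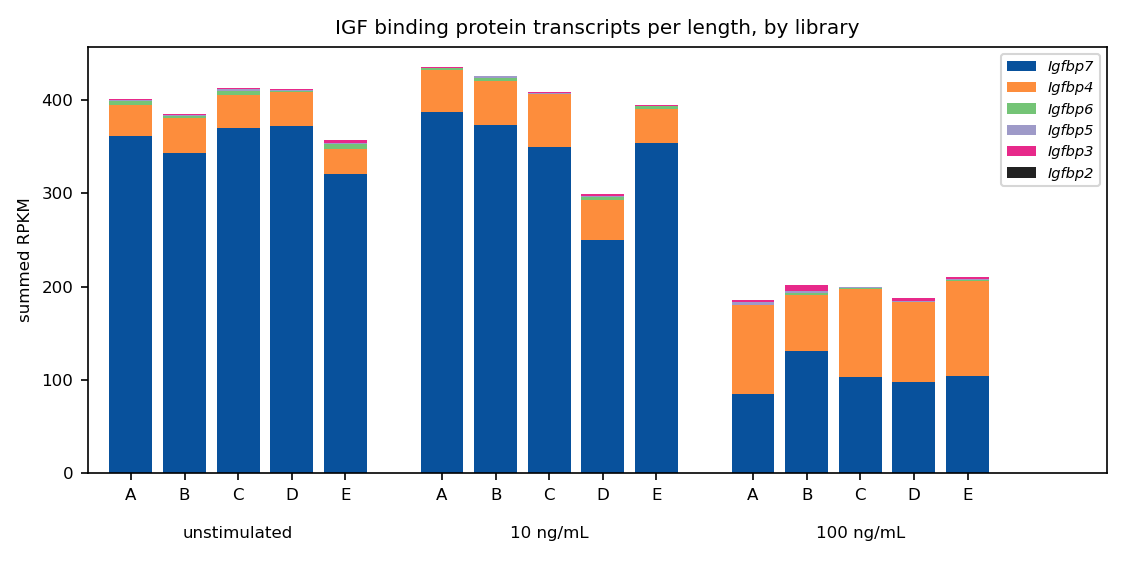
Summed RPKM of the 6 binding protein genes in each of the 15 libraries, as stacked bars from 0. Igfbp7 fills most of each bar at 0 and 10 ng/mL, and at 100 ng/mL bars of 186.0 to 210.6 RPKM are split mainly between Igfbp7 and Igfbp4.

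Around the members, a list of 48 other genes of the pathway was read by role, of which 40 were tested. At 100 against 0 ng/mL 7 rose and 15 fell, with a median log2 fold change of -0.11, against the 21.4% and 21.5% of all genes given above and a median of 0.01. At 10 against 0 ng/mL none passed in edgeR, and 2 had an unadjusted p under 0.05. Over all genes tested, 844 of 17650 had such a p in that comparison, so this count is near the background. Among the inhibitors of pappalysin, stanniocalcin 1 (Stc1) rose and stanniocalcin 2 (Stc2) fell. Stc1 held 4.34, 3.28, 3.57, 2.78 and 4.36 CPM in unstimulated libraries A to E, 2.73 to 5.10 CPM at 10 ng/mL, and 177.2, 120.6, 83.5, 169.4 and 111.7 CPM at 100 ng/mL. The lowest 100 ng/mL library lay far above the highest of the other 10. Its mean rose from 3.67 ± 0.684 to 132.5 ± 39.8 CPM, a log2 fold change of 5.17 ± 0.25 (edgeR adjusted p = 8.08e-09), or 36.0-fold. Stc2 fell from 7.46 ± 2.47 to 3.66 ± 0.599 CPM (-1.03 ± 0.23 on the log2 scale, adjusted p = 0.00236). Prg2, which encodes the precursor of eosinophil major basic protein, another partner that blocks pappalysin, fell from 1.54 ± 0.868 to 0.446 ± 0.221 CPM (adjusted p = 0.00736). Pappa2, the other pappalysin gene, was not tested, with 0.109 CPM on average without stimulation and 0.162 CPM at the higher dose.

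Of the other proteases known to cut IGF binding proteins, 4 of 5 were tested. Of these 1 rose and 3 fell, against 21.4% and 21.5% of all genes tested. Htra1, a secreted serine protease, fell from 26.7 ± 8.12 to 4.45 ± 2.37 CPM, with a log2 fold change of -2.58 ± 0.38 (edgeR adjusted p = 6.51e-05). The disintegrin metalloprotease gene Adam12 fell from 91.0 ± 12.6 to 32.6 ± 15.6 CPM (adjusted p = 0.000321), and Adam9 fell by 0.81 ± 0.13 on the log2 scale. Adamts1, which encodes a secreted matrix protease, rose from 118.5 ± 25.5 to 358.5 ± 53.1 CPM, or by 1.60 ± 0.20 on the log2 scale (adjusted p = 1.4e-05). For each of these 4 the groups did not overlap, against 27.2% of all genes tested. Both cell surface partners of binding proteins on the list fell. Lrp1, a large endocytic receptor, went from 136.3 ± 84.4 to 33.2 ± 17.4 CPM (adjusted p = 0.00475), and Tmem219, a proposed IGFBP3 receptor, changed by -0.22 ± 0.08 on the log2 scale (adjusted p = 0.0269).

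Of the other ligands, Igf2 was tested and Ins1 and Ins2 had rounded counts of 0 in every library. Igf2 held 0.132, 0.269, 0.527, 0.0928 and 1.03 CPM in unstimulated libraries A to E and 0.620 to 1.002 CPM at 100 ng/mL, with a log2 fold change of 1.03 ± 0.43 (edgeR adjusted p = 0.0646). Without unstimulated E it was 1.74 (adjusted p = 0.000943), and without the 3 libraries that stood apart 1.68 (adjusted p = 0.00213). Of 26 alternative fits that tested Igf2 in this comparison, 7 passed the threshold, limma-voom among them (adjusted p = 0.011). At 100 against 10 ng/mL Igf2 rose by 1.39 ± 0.44 (log2; adjusted p = 0.0206), still under or near 1 CPM. The insulin receptor gene Insr rose from 79.3 ± 8.28 to 113.2 ± 3.93 CPM, or by 0.51 ± 0.07 on the log2 scale (adjusted p = 1.87e-05), and its groups did not overlap. Per length, the ratio of Insr to Igf1r was 0.425 to 0.557 in unstimulated libraries, 0.478 to 0.555 at 10 ng/mL and 0.664 to 0.915 at 100 ng/mL. None of the 3 other binding protein genes was tested, and Igfbp1 had a rounded count of 0 in every library.

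Among 7 tested receptor adaptors, 1 rose and 3 fell, against 21.4% and 21.5% of all genes tested. Irs1, the first of the insulin receptor substrates, held 7.19, 8.89, 7.97, 8.78 and 11.4 CPM in unstimulated libraries A to E and 0.872, 3.14, 1.08, 0.584 and 0.569 CPM at 100 ng/mL, where B was the highest. Its log2 fold change was -2.83 ± 0.35 (edgeR adjusted p = 1.4e-05). Irs2 fell from 1.91 ± 0.431 to 0.604 ± 0.169 CPM (adjusted p = 2.09e-05), and Grb14, which encodes an adaptor that inhibits receptor kinase activity, from 2.11 ± 0.647 to 0.715 ± 0.364 CPM (adjusted p = 0.00139). The related inhibitor gene Grb10 rose by 0.40 ± 0.09 on the log2 scale (adjusted p = 0.0016). In the PI3K-AKT branch 2 of 18 genes rose, Pik3ca among them, and 5 fell (Pik3cb, Pik3cd, Akt2, Foxo1 and Foxo4). The same background shares apply, with 42.9% of all genes tested changed in either direction. The log2 fold change was -0.61 ± 0.11 for Pik3cd and 0.13 ± 0.05 for Pik3ca. Of 3 genes for Igf2 mRNA-binding proteins, Igf2bp2 rose by 0.62 ± 0.15 (log2; adjusted p = 0.00407) and the other two did not pass the test.

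**Figure D5:**
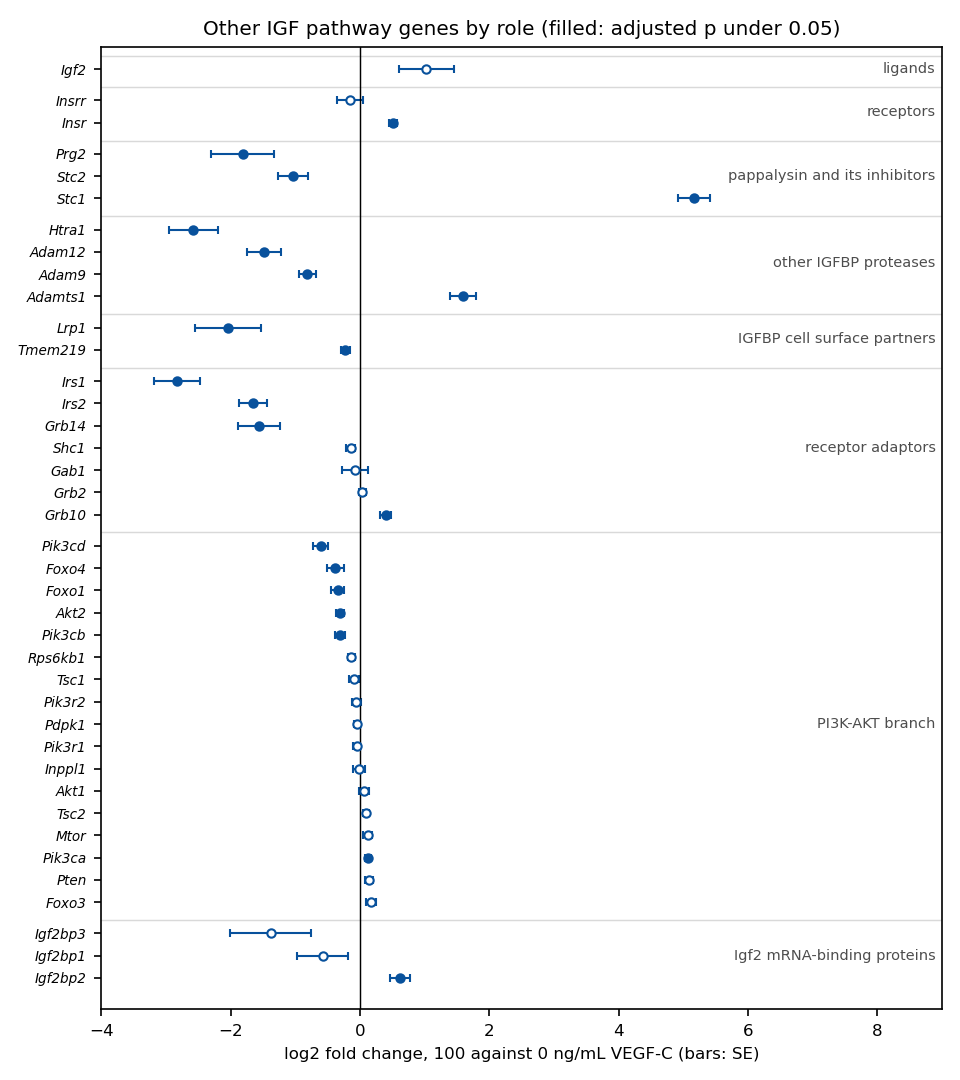
Log2 fold changes with SE bars of the tested pathway genes except 1 at 100 against 0 ng/mL, grouped by role, with filled symbols for those with an adjusted p under 0.05. Stc1 lies farthest right at 5.17, and Irs1 (-2.83) and Htra1 (-2.58) lie farthest left.

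The genes most like each member in how libraries of 1 group differ were found by Pearson's r of log2 CPM after each group's mean was taken out, over 15 libraries and about 11400 genes. For Igfbp3 they were Tubb3 (r = 0.979), Zfp385a (0.974) and Ybx1 (0.971), for Igfbp4 Efcc1 (0.949), Gpr182 (0.941) and Ing4 (0.939), and for Igfbp6 Zfhx4 (0.961) and Tmeff1 (0.953). For Igfbp7 they were Disp1 (0.925), Cep63 (0.906) and Gnaq (0.870), for Pappa Yap1 (0.925), Nudt16 (0.925) and Acer2 (0.887), and for Igfbp5 Abr (0.904), Csf1r (0.868) and Dap (0.866). For Igf1 they were Ttll7 (0.964), Thrb (0.928) and Adamts9 (0.922), for Igf1r Cmah (0.941), Agtpbp1 (0.937) and Mia3 (0.936), and for Igf2r P2rx7 (0.881) and Gsn (0.879). Among pairs of members r was -0.69 for Igfbp4 with Igfbp6, -0.68 for Igfbp3 with Igfbp4, 0.64 for Igf1r with Pappa and -0.63 for Igfbp3 with Pappa. These values are descriptions, without p-values, of libraries that also share the 3 that stand apart.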

How the data were processed

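RNA sequencing of 15 libraries was used in 3 groups of 5, taken from the sample titles. The authors deposited estimated counts and RPKM values per gene and library, per the file headers. Of the estimated counts deposited, 64.3% were fractional. The deposited RPKM values use library totals 1.86 to 1.92 times the count sums. Bowtie2, FastQC and limma, with GRCm38 (mm10) as the build, stand in the submitters' processing notes with no version. The counting tool and its handling of strand and of reads with several matches are not stated there or in the labels, so values of overlapping genes are uncertain.

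Counts were rounded, filtered by filterByExpr, scaled by TMM and fitted with group as the only term (edgeR 4.0.16, R 4.3.3; tested on simulated data), with Benjamini-Hochberg adjustment over 17650 genes. Totals of 27784906 to 38590841 counts set the precision. All members are named, with pathway genes that passed the test with a log2 change of at least 1 at 100 against 0 ng/mL and 6 set genes; Adam9, Tmem219, Grb10, Igf2bp2 and the PI3K-AKT genes were named after their values were seen. The alternatives used limma 3.58.1, DESeq2 1.42.0 and sva 3.50.0, other scalings and filters, and left-out libraries. Members, gene lists and tests were chosen with earlier results of these data known. Some genes are not reported here. A second deposited table of a subset of genes was not used.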

Additional observations from a re-analysis of the deposited data

Results flagged for a closer look

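Among 33 groups of 5 values (10 members and the binding protein sum in 3 doses), 4 held a library far from the others by Dixon's criterion, and chance gives about 1 in 20 groups. Igfbp3 stood at 17.96 CPM in unstimulated E, against 3.58 to 5.63 CPM in the other unstimulated libraries, and at 10.6 CPM in 10 ng/mL D, against 3.08 to 3.59 CPM. In the same library, 10 ng/mL D, Igfbp7 stood at 532.8 CPM, against 755.9 to 828.6 CPM, and Pappa at 3.05 CPM, against 6.41 to 7.76 CPM. These are libraries that stood apart on the second principal component.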

How the results depend on the processing

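At 100 against 0 ng/mL Igfbp4, Igfbp7 and Pappa kept their direction and passed the threshold in every alternative that tested them, with highest adjusted p-values of 5.58e-05, 4.52e-06 and 0.000119; Igfbp6 did too (0.0265). With at least 10 CPM in 5 libraries, which leaves out Pappa and Igfbp6, 1 member fell at 100 against 0 ng/mL and 2 at 100 against 10 ng/mL, and the genes that rose numbered 2435 and 2312, against 3778 and 3513. With 3 surrogate variables 3 members rose at 100 against 0 ng/mL: Igfbp4, Igfbp3 (log2 1.27, adjusted p = 9.27e-05) and Igf1 (0.60, 0.000159). Igf1r fell (-0.13, 0.0129). That fit called 10211 of all genes tested there, against 7571 in the main fit. At 10 against 0 ng/mL 1 member rose in it (Igfbp4, adjusted p = 0.0487), where 58 genes rose and 22 fell. For the latter comparison the DESeq2 Wald test gave 8 genes that rose. Without the 3 libraries that stand apart 2 members rose at 100 against 0 ng/mL. Leaving out single libraries gave 1 to 2 members that rose at 100 against 0 ng/mL, 1 to 3 at 100 against 10 ng/mL, and 0 to 1 genes that rose at 10 against 0 ng/mL. The cause was not tested. With the letters as a replicate block, 1 member rose at 100 against 10 ng/mL, since Igfbp3 (adjusted p = 0.0606) and Igfbp5 (0.0921) lost the threshold, and Igf2 passed it at 100 against 0 ng/mL (1.19, 0.0288). No label says that letters mark shared cultures or days. In 15 comparisons of a library with another group, 0 had the highest correlation at its own letter, and same-letter correlations ran from -0.342 to 0.132. Unstimulated A, B, C, D and E correlated best with 10 ng/mL E, A, B, C and D (r = 0.487, 0.562, 0.655, 0.675 and 0.786); this is a hint from the data, not the design, and these libraries were not paired.

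The fold changes of single genes that changed sign had adjusted p-values of at least 0.605 there. For Igf2r at 100 against 10 ng/mL the log2 fold change was -0.0024 with library size alone, -0.0096 without a filter and -0.0195 at 10 CPM, and -0.0678 to 0.0787 without single libraries. At 10 against 0 ng/mL it was -0.477 to 0.129 for Igf1, -1.15 to 0.0603 for Igfbp3 and -0.0560 to 0.0864 for Igfbp7 without single libraries, and 0.0452 for Igfbp7 without the 3 libraries. The binding protein sum differed by -196.5 RPKM at 100 against 0, -0.712 at 10 against 0 and -195.8 at 100 against 10 ng/mL. Without Igfbp7 these were 52.8, 9.73 and 43.1 RPKM, and without single libraries the second ran from -11.3 to 22.6. For Pappa and Igfbp2 the depth limits what can be said of single libraries at 100 ng/mL.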
